A study of Mus musculus with 12 samples.

Results

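The Hox clusters of the mouse, classical targets of polycomb repression, were followed at the RNA level through acinar cells, metaplastic cultures and tumor cells of the pancreas. The members were 38 Hox genes of the Hoxa, Hoxb, Hoxc and Hoxd clusters, taken by gene symbol with no measured value used, of 22180 genes that had a probe set of 1 gene symbol. Each gene was read from its probe set of 1 symbol with the highest mean over the 12 arrays. Such a probe set was found for 36 of the 38 members. Hoxa11 and Hoxd4 appeared only in probe sets that carry several symbols and have no value here.

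The 12 arrays held 4 groups of 3, all labelled with the strain C57Bl6/J wildtype. Acinar cells make the digestive enzymes of the pancreas. Those of adult and of embryonic animals had been isolated by collagen digestion, with RNA prepared at once. Acinar-to-ductal metaplasia (ADM), in which acinar cells take on ductal features, was obtained in a 3D collagen gel over 7 days with TGF-alpha, which activates the EGF receptor, at 50 ng/ml. The fourth group was low-passage tumor cells in standard medium. The labels used here give no age, embryonic day or tumor genotype. The 3 tumor samples share 1 code, and the labels do not say whether they are 1 cell line. Whether the replicates come from different animals or cultures is not given either, so p-values measure only the spread between these samples, which may be technical.

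Hox genes encode homeodomain transcription factors that give cells their position along the body axis, and the genes of a cluster lie in the order in which they are used from head to tail. Polycomb repressive complex 2 (PRC2) places a repressive methyl mark on histone H3 and polycomb repressive complex 1 (PRC1) binds that mark and compacts chromatin, and together they keep Hox genes off outside their own domain. The pancreas buds from the foregut, where the surrounding mesenchyme is known to express anterior and central Hox genes. Polycomb binding and histone marks were not analysed here.

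The labelled cell types were set against their markers, and the arrays separated by group. All 11 measured acinar markers were above background in adult and in embryonic cells, 10 in ADM and 5 in tumor cells, where the acinar factor Ptf1a was at or under background. Of 8 ductal markers, 6 were above background in adult, 7 in embryonic, 8 in ADM and 7 in tumor cells. Against adult cells, 4 were called higher and 0 lower in ADM. In tumor cells 3 were called higher and 3 lower (Sox9, Muc1 and Onecut1). The count of ductal markers above background thus did not separate tumor from embryonic cells. Embryonic cells also carried markers of other cells. Called higher there than in adult cells were 9 of 9 endothelial, 8 of 9 endocrine and 6 of 6 mesothelial markers. So were 17 of 22 fibroblast and mesenchymal, 8 of 11 immune, 3 of 10 neural and Schwann and 1 of 3 erythroid markers. Over all genes 10% were called higher in that comparison. Correlations across genes were 0.967 to 0.991 between arrays of a group and 0.817 to 0.938 between arrays of different groups. In such bulk RNA, fewer cells of a type and less RNA per cell cannot be told apart.

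Most of the Hox genes were above background in no group by a rule that asked for signal on all 3 arrays. The background level lay at 3.61 on the log2 scale. It was the value under which 95% of the group means of 1449 chemosensory receptor genes fell, that is olfactory, vomeronasal, taste and trace amine receptors. A gene counted as above background in a group when all 3 arrays exceeded that level. By this rule 9 of 36 Hox genes (25.0%) were above background in at least 1 group, against 60.2% of all genes, and the other 27 are called silent here. Silent in this sense does not mean under the level by group mean. Means of silent Hoxa13 in adult cells (3.84) and Hoxb3 in embryonic cells (4.12) exceeded it. By group mean alone 12 Hox genes passed in adult, 11 in embryonic and 10 in ADM samples. Hoxa4, Hoxa6 and Hoxd8 were above background in all 4 groups, which makes 8.33% of the Hox genes against 43.1% of all genes.

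The count was 6 of 36 (16.7%) in adult cells, where 51.3% of all genes were above background. It was also 6 in embryonic cells, against 54.0% of all genes, and 6 in ADM cultures, against 52.6%. Tumor cells had 3 of 36 (8.33%), against 49.3% of all genes. Equal counts did not mean equal genes. Hoxa4, Hoxa6, Hoxb5 and Hoxd8 were shared by adult, embryonic and ADM samples, to which adult cells added Hoxc6 and Hoxc10, embryonic cells Hoxa2 and Hoxa5, and ADM cultures Hoxa5 and Hoxb6.

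**Figure D1:**
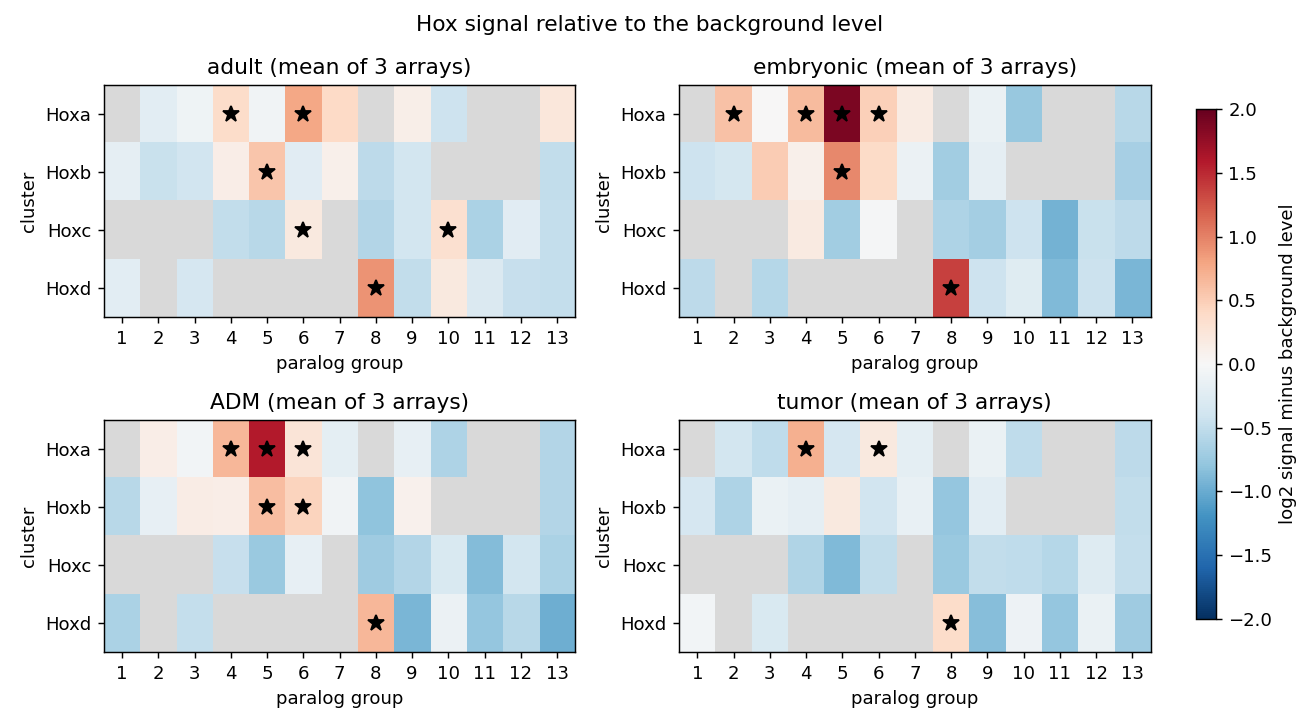
Mean log2 signal over 3 arrays minus the background level of 3.61, by cluster (rows) and paralog group (columns), in 1 panel per group; red is above and blue below the level, grey marks positions with no measured member, and a star marks genes above the level on all 3 arrays. Hoxa4, Hoxa6 and Hoxd8 are starred in all 4 panels, Hoxa5 in the embryonic and ADM panels, and no star lies beyond paralog group 10.

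At the level used here, the genes above background lay mainly in the centre of the clusters. Of the 11 measured genes of paralog groups 5 to 8, 6 (54.5%) were above background in at least 1 group. The anterior paralog groups 1 to 4 had 2 of 10 (20.0%), Hoxa2 and Hoxa4. The posterior groups 9 to 13 had 1 of 15 (6.67%), Hoxc10 in adult cells. With the level taken from adult arrays alone (3.87), an alternative chosen after seeing the data, neither Hoxc10 nor Hoxc6 was above background on all 3 adult arrays.

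By cluster, Hoxa had 4 of 9 measured genes above background in at least 1 group, Hoxb 2 of 10, Hoxc 2 of 9 and Hoxd 1 of 8. The silent genes were 5 of Hoxa, 8 of Hoxb, 7 of Hoxc and 7 of Hoxd. Array values of all measured Hox genes ran from 2.55 to 5.75, whereas genes of the whole table reached 13.36. The median of the 27 silent genes was 3.24 in adult, 3.16 in embryonic, 3.05 in ADM and 3.12 in tumor cells. Receptor genes had medians of 2.94, 2.64, 2.63 and 2.75 in the same order, so the silent Hox probe sets were somewhat brighter than the typical receptor probe set. Different probe sets bind with different strength, and these medians compare groups rather than genes.

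The counts were sensitive to where the level was set. A level at the 90th percentile of the receptor genes left 13 Hox genes above background in embryonic and 14 in ADM samples, and one at the 99th percentile left 0 in adult, 2 in embryonic, 1 in ADM and 0 in tumor cells. At that strictest level Hoxa5 was the one Hox gene above background in ADM. The positions depended on the level too. At the 90th percentile, ADM had anterior Hoxa2, Hoxa3, Hoxa4, Hoxb3 and Hoxb4 and posterior Hoxb9 and Hoxd10. Its central genes were then Hoxa5, Hoxa6, Hoxa7, Hoxb5, Hoxb6, Hoxb7 and Hoxd8. When only the group mean had to exceed the level, adult cells had posterior Hoxa9, Hoxa13, Hoxc10 and Hoxd10, beside central and anterior genes.

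The promoters of 3 genes show what the clusters look like as sequence: Hoxa5, the one Hox gene whose change passed the test below, Hoxd8, above background in every group, and Hoxa13, a posterior gene that was silent by the rule, although 2 of its 3 adult arrays (4.32 and 3.85) exceeded the level and it passed without adult replicate 3. Each run is the 250 bases before the annotated start (RefSeq, build GRCm38.p6), 5′ to 3′ on the gene's strand, with CpG dinucleotides in capitals. CpG-dense DNA is where polycomb complexes are recruited in mammals. Hoxa5 lies at chr6:52204588-52204837 on the minus strand, Hoxd8 at chr2:74704365-74704614 on the plus strand and Hoxa13 at chr6:52260881-52261130 on the minus strand.
Hoxa5 promoter: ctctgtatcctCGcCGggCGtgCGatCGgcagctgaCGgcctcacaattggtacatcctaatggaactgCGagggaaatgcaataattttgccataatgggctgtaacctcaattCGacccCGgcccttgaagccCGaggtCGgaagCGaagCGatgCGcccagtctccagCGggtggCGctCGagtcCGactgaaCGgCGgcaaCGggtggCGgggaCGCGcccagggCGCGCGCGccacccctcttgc
Hoxd8 promoter: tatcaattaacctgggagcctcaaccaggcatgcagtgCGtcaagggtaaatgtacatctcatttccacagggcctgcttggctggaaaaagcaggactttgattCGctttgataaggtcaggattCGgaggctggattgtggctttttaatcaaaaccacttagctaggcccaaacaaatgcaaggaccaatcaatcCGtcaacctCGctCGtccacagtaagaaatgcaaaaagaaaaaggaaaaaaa
Hoxa13 promoter: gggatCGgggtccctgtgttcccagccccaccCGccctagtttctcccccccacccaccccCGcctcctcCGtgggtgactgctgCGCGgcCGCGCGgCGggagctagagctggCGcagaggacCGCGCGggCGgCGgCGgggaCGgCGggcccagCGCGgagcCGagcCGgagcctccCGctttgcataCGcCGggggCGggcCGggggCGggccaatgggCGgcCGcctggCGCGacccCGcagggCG

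The Hoxa5 run held 28 CpG dinucleotides, the Hoxd8 run 6 and the Hoxa13 run 35. These genes do not stand for their classes: in windows of 300 bases, Hoxa6, above background in all groups, held 26 CpG dinucleotides and silent Hoxa9 held 4. Such windows (250 bases before and 50 after the start) were at hand for 22 Hox genes, 24 windows in all. Their median was 14.5 CpG dinucleotides, against 7 over all 32851 windows. The ratio of observed to expected CpG exceeded 0.6 in 12 of 24 Hox windows (50%) and in 35.8% of all windows. Among Hox genes, 2 of 4 windows of genes above background and 9 of 18 windows of silent genes passed that ratio, with medians of 17.5 and 17 CpG dinucleotides. The TATA box letters TATAAA, searched on both strands, occurred in 4 of 24 Hox windows (16.7%) and in 13.6% of all windows.

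Hoxa5 was the member with the largest differences, and it was the only Hox gene called in any of the 6 comparisons. Hoxa5 is known from mouse genetics to act in the mesenchyme of the developing lung and gut. Its log2 signal was 3.33, 3.39 and 3.91 in adult cells and 5.75, 5.28 and 5.44 in embryonic cells. In ADM cultures it was 5.67, 4.53 and 5.38, and in tumor cells 3.05, 3.35 and 3.43. Embryonic and ADM arrays overlapped with each other and lay above all adult and tumor arrays, which also overlapped. A gene was called at a Benjamini-Hochberg adjusted p under 0.05 over all 22180 genes and a change of 1 log2 unit or more in either direction, with limma.

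Against adult cells (3.54 ± 0.319, SD, n = 3), Hoxa5 was higher in embryonic cells (5.49 ± 0.239) by 1.95 ± 0.27 on the log2 scale (SE of the limma fit, adjusted p = 0.000119). As adult signal lay under the background level, this is at least a 3.68-fold difference. In ADM cultures (5.19 ± 0.592) the difference from adult was 1.65 ± 0.27 (adjusted p = 0.000287), or at least 3.00-fold. It kept its direction in all 17 alternative settings tried, from 0.73 to 1.98, and lost its call in 1 of them, when arrays were centred on housekeeping genes (0.73, adjusted p = 0.0221, under the fold minimum). The ADM arrays spread more than the others, with replicate 2 the lowest at 4.53.

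Tumor cells (3.28 ± 0.200) lay below ADM cultures by a log2 fold change of -1.92 ± 0.27 (adjusted p = 0.000221), at least 3.00-fold. They lay below embryonic cells by -2.21 ± 0.27 (adjusted p = 2.94e-05), at least 3.68-fold. Both calls and the embryonic call were kept in all 17 alternatives run for each. Between tumor and adult cells the difference was -0.27 ± 0.27 (adjusted p = 0.464), and between ADM and embryonic cells -0.30 ± 0.27 (adjusted p = 0.578), in limma's fit. Neither difference passed the test, which does not show that the groups were alike.

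**Figure D2:**
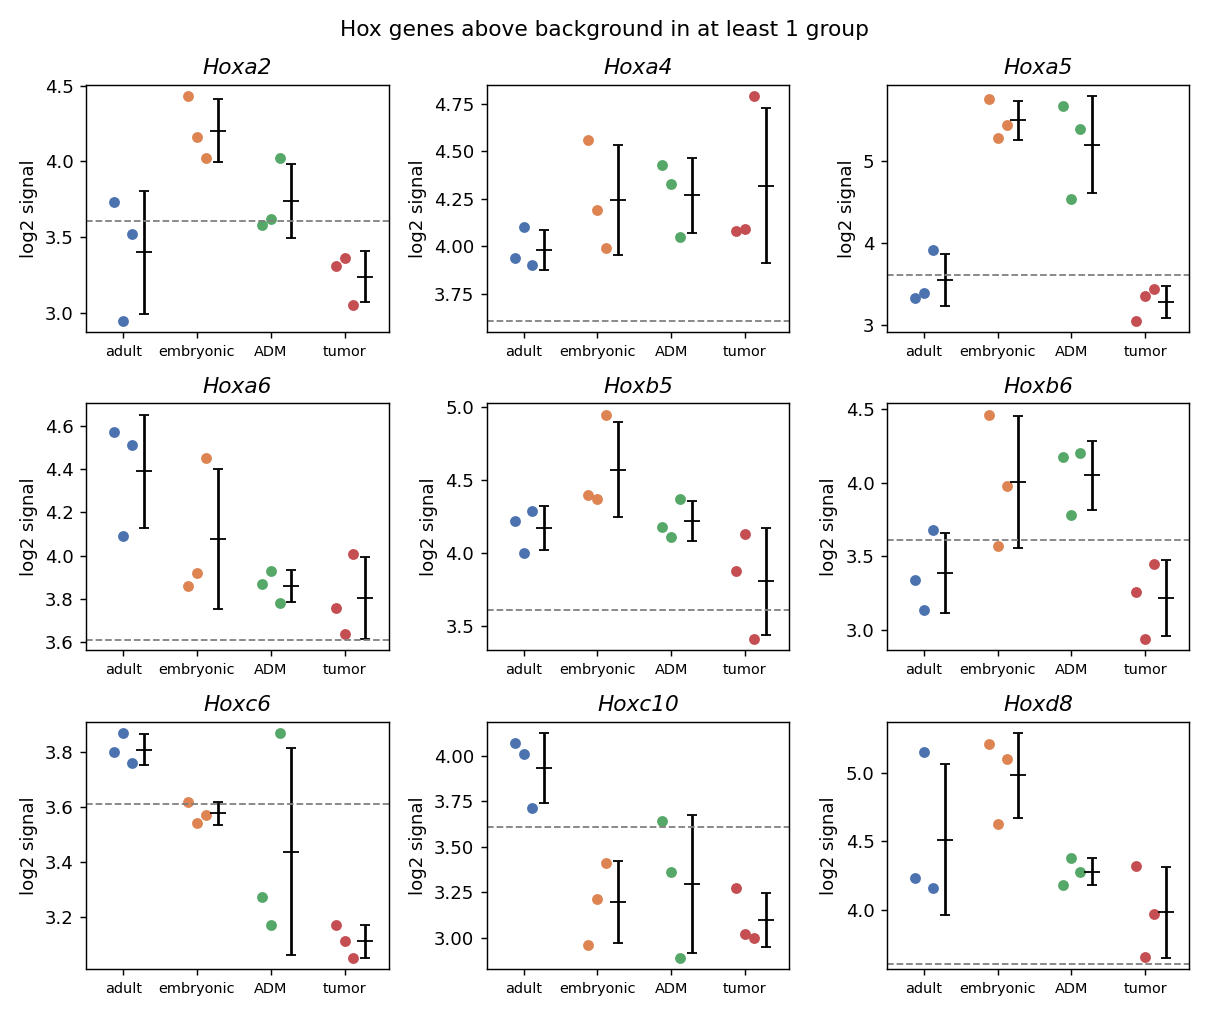
Log2 signal of the 9 Hox genes above background in at least 1 group, 1 point per array in the 4 groups, with the mean and SD of 3 arrays as black bars and the background level of 3.61 as a dashed line; each panel has its own axis, which does not start at 0. Hoxa5 embryonic and ADM points lie between 4.53 and 5.75 and its adult and tumor points between 3.05 and 3.91.

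Many but not all markers of fibroblasts and mesenchyme moved along with Hoxa5. Of 22 such markers, all measured, 17 were called higher in embryonic than in adult cells, against 10% of all genes. In ADM 12 were higher than in adult cells, against 12.5% of all genes. In tumor cells 1 was higher and 6 lower than in adult cells, against 14% and 5.96% of all genes. In tumor cells 13 were lower than in ADM, against 5.07% of all genes. Dcn (-0.87), Dpt (-1.16), Gli1 (-0.52), Foxf1 (-0.78) and Tbx5 (-0.63) were lower in ADM than in adult cells, without a call. Fbln2 was highest in tumor cells (9.67, against 9.35 in ADM). Between ADM and embryonic cells 11 markers were lower and 2 higher in ADM, against 4.91% and 4.55% of all genes. The summed linear signal of the 22 markers ran from 1430 to 1540 on adult arrays, 8380 to 14000 on embryonic, 3730 to 8120 on ADM and 963 to 1390 on tumor arrays. At or under background were 1 marker in adult cells (Nkx3-2), 1 in embryonic cells (Tbx5), 3 in ADM (Gli1, Nkx3-2 and Tbx5) and 10 in tumor cells, Col1a2, Dcn, Lum, Pdgfra and Postn among them. The groups with high Hoxa5 were thus those with the higher sums, without overlap between the arrays. This was not particular to fibroblast markers. The sums of 11 immune markers ran from 393 to 434 on adult arrays and 1540 to 2230 on embryonic arrays. They ran from 755 to 1260 on ADM and 148 to 166 on tumor arrays, also without overlap. Of these immune markers, 3 were called higher in ADM than in adult cells, against 12.5% of all genes. The part of fibroblasts or immune cells in the Hoxa5 signal was not tested.

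Among the neighbours of Hoxa5 in its cluster, the anterior genes differed less. Hoxa2, which patterns the hindbrain and the second pharyngeal arch, read 3.73, 2.95 and 3.52 in adult, 4.43, 4.16 and 4.02 in embryonic, 3.58, 3.62 and 4.02 in ADM and 3.31, 3.36 and 3.05 in tumor cells. Embryonic arrays stood above all adult and tumor arrays, with a difference from adult of 0.80 ± 0.21 (adjusted p = 0.0118 in limma's fit), under the fold minimum. The ADM arrays reached down to 3.58, just under the background level, and up to the lowest embryonic value.

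Hoxa4 was above background everywhere, with 3.94, 4.10 and 3.90 in adult, 4.56, 4.19 and 3.99 in embryonic, 4.43, 4.33 and 4.05 in ADM and 4.08, 4.09 and 4.79 in tumor cells. All groups overlapped with at least 1 other, and no comparison of Hoxa4 had an adjusted p under 0.05. Hoxa6, the gene next to Hoxa5 on its posterior side, went another way. It read 4.57, 4.09 and 4.51 in adult, 3.86, 3.92 and 4.45 in embryonic, 3.87, 3.93 and 3.78 in ADM and 3.76, 3.64 and 4.01 in tumor cells. Adult arrays lay above all ADM and tumor arrays, by log2 fold changes of -0.53 ± 0.19 for ADM (adjusted p = 0.0441) and -0.59 ± 0.19 for tumor cells (adjusted p = 0.0265), in limma's fit. Both adjusted p-values exceeded 0.05 after quantile normalization (0.068 and 0.0591).

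In the Hoxb cluster, 2 central genes were above background. Hoxb5, which is needed for the enteric nervous system, read 4.22, 4.0 and 4.29 in adult, 4.40, 4.37 and 4.95 in embryonic, 4.18, 4.11 and 4.37 in ADM and 3.88, 4.13 and 3.41 in tumor cells. Tumor cells missed the rule by 1 array, and lay below all embryonic arrays (-0.77 ± 0.21, limma adjusted p = 0.0137; 0.0625 after quantile normalization). Hoxb5 had 2 probe sets of its own. The second read 3.83, 3.91 and 3.63 in tumor cells, all above the level, and 5.28, 4.36 and 4.37 in embryonic cells.

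Hoxb6, which is expressed in the mesenchyme around the embryonic pancreas, read 3.34, 3.14 and 3.68 in adult, 4.46, 3.57 and 3.98 in embryonic, 4.17, 3.78 and 4.20 in ADM and 3.26, 2.94 and 3.45 in tumor cells. ADM arrays lay above all adult and tumor arrays. The log2 difference from adult was 0.66 ± 0.23 (adjusted p = 0.0408 with limma) and turned to -0.26 with housekeeping centring. Tumor cells lay below ADM by -0.83 ± 0.23 (adjusted p = 0.027), with the same direction under the 4 other scalings. The embryonic group missed the rule by 1 array of 3.57, which lay under the highest adult array of 3.68. The groups with the higher fibroblast and immune sums given above also had the higher Hoxb6 means. Unlike those of Hoxa5, however, the embryonic and adult arrays of Hoxb6 overlapped. The part of fibroblasts or immune cells in the Hoxb6 signal was not tested.

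The Hoxc genes above background were so in adult cells only, within these 4 groups and at the common level. Hoxc6 read 3.80, 3.87 and 3.76 in adult, 3.62, 3.54 and 3.57 in embryonic, 3.27, 3.17 and 3.87 in ADM and 3.17, 3.11 and 3.05 in tumor cells. Adult arrays lay above all embryonic and tumor arrays, and the log2 fold change of tumor against adult was -0.70 ± 0.17 (limma adjusted p = 0.00547). Hoxc10, a gene of the lumbar trunk and hind limb, read 4.07, 4.01 and 3.71 in adult, 2.96, 3.21 and 3.41 in embryonic, 3.64, 3.36 and 2.89 in ADM and 3.27, 3.02 and 3.00 in tumor cells. Every adult array exceeded every array of the other groups, with log2 fold changes of -0.74, -0.63 and -0.83 for embryonic, ADM and tumor cells against adult. As the other groups lay under background, adult cells were at least 1.25-fold higher, a small margin.

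Hoxd8 was the single Hoxd gene above background, and it was so in every group. It read 4.23, 5.15 and 4.16 in adult, 5.21, 4.63 and 5.10 in embryonic, 4.18, 4.38 and 4.28 in ADM and 4.32, 3.66 and 3.97 in tumor cells. Embryonic arrays lay above all ADM and tumor arrays, while adult arrays overlapped with all groups. Tumor against embryonic gave a log2 fold change of -1.0 ± 0.26 (adjusted p = 0.0111 with limma) that fell just short of the fold minimum before rounding. It was called under housekeeping and 75th percentile centring, while after quantile normalization it was -0.78 with an adjusted p of 0.0908, and the adjusted p reached 0.0546 when 1 array was left out.

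The share of the 36 members called was below that of the whole table in each comparison as deposited, a description without a test, since most members are dim. Under housekeeping centring the order turned in 3 comparisons, with 69.4% of Hox genes against 56.7% of all genes in ADM against adult, 72.2% against 55% in tumor against adult and 19.4% against 16.2% in tumor against embryonic cells. In ADM against adult, 1 of 36 Hox genes (2.78%) was called, against 16.7% of all genes, of which 12.5% were higher and 4.22% lower. In embryonic against adult cells, the called Hox gene was again 1, against 12.6% of all genes, 10% higher and 2.61% lower. In tumor against adult cells limma called 0 of 36, against 20.0% of all genes, 14% higher and 5.96% lower. At an unadjusted p under 0.05 the last comparison had 7 Hox genes, all lower in tumor cells, against 45.3% of all genes. These 3 comparisons share the adult arrays.

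In tumor cells against ADM, 1 Hox gene was called, lower, against 8.35% of all genes, 3.28% higher and 5.07% lower. In ADM against embryonic cells limma called 0 of 36, against 9.46% of all genes, 4.55% higher and 4.91% lower, and 4 Hox genes had an unadjusted p under 0.05, all lower in ADM, against 27% of all genes. In tumor against embryonic cells 1 Hox gene was called, lower, against 14.3% of all genes, 6.53% higher and 7.80% lower. Hoxa5 was the called gene each time.

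Without the fold minimum, small differences came into view on either side. In ADM against adult, 2 Hox genes were higher (Hoxa5 and Hoxb6; 5.56%), against 20.9% of all genes. In the same comparison 6 were lower (16.7%), against 15.0% of all genes: Hoxa6, Hoxa13, Hoxc10, Hoxd9, Hoxd11 and Hoxd13. In embryonic against adult cells 4 were higher (Hoxa2, Hoxa5, Hoxb3 and Hoxc4; 11.1%), against 17.6% of all genes. In the same comparison 4 were lower (Hoxa13, Hoxc10, Hoxd11 and Hoxd13; 11.1%), against 11.8% of all genes. In tumor against adult cells 0 were higher in limma's fit, against 22.1% of all genes, and 5 were lower (Hoxa6, Hoxa13, Hoxc6, Hoxc10 and Hoxd11; 13.9%), against 15.2%. These shares lie near or below those of all genes, and no test by position in the cluster was made.

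Both sides stood close to the background signal. Hoxb3 in embryonic cells read 4.40, 3.27 and 4.69 against 3.07, 3.34 and 3.27 in adult cells, so that the groups overlapped, with 2 embryonic arrays high and 1 not. Hoxc4, the most anterior gene of its cluster, read 3.70, 3.38 and 4.30 in embryonic and 3.21, 3.03 and 3.12 in adult cells, without overlap (0.67 ± 0.19, adjusted p = 0.0196). Under housekeeping centring Hoxa2, Hoxb3 and Hoxc4 kept their direction in embryonic cells without an adjusted p under 0.05. Hoxa13, a gene of the hindgut and distal limb, read 4.32, 3.85 and 3.35 in adult cells and between 2.77 and 3.38 on the 9 other arrays.

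The lower calls against adult cells went with a general rise of dim signal on adult arrays. Receptor genes had a median log2 fold change of -0.30 in ADM, -0.29 in embryonic and -0.18 in tumor cells against adult, and 92.1%, 90.1% and 77.5% of them were lower. The Hox medians were -0.18, -0.17 and -0.20, with 25, 23 and 29 of 36 genes lower. The median over all genes was -0.11, -0.09 and -0.09. The Hox shift was thus smaller than that of receptor genes in ADM and embryonic cells and slightly larger in tumor cells. The Hox medians of ADM and embryonic cells turned to 0.02 and 0.04 after quantile normalization. After quantile normalization Hoxa13, Hoxd11 and Hoxd13 no longer had an adjusted p under 0.05 in any comparison with adult cells, and Hoxc10 kept one in embryonic (0.0468) and tumor cells (0.0144). Housekeeping and 75th percentile centring gave larger differences in ADM. Hoxa13 read -1.74 and -1.42, Hoxd11 -1.40 and -1.09 and Hoxd13 -1.41 and -1.10, with limma adjusted p under 0.05. The medians over all genes were then -1.03 and -0.72. The part of the dim-signal rise in these small differences was not tested.

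In the comparisons without adult arrays, ADM against embryonic cells had 0 Hox genes higher in limma's fit, against 9.13% of all genes, and 2 lower (Hoxc4 and Hoxd9; 5.56%), against 8.44%. Tumor cells against ADM had 1 higher (Hoxd1; 2.78%), against 7.41% of all genes, and 2 lower (Hoxa5 and Hoxb6; 5.56%), against 7.94%. Tumor against embryonic cells had Hoxd1 higher (2.78%), against 14.2%, and 6 lower (Hoxa2, Hoxa5, Hoxb5, Hoxb6, Hoxc4 and Hoxd8; 16.7%), against 12.3% of all genes. Hoxd1, a gene induced by retinoic acid, read 3.56, 3.75 and 3.34 in tumor cells, 2.97, 3.24 and 3.03 in embryonic and 2.92, 2.99 and 3.04 in ADM samples. The difference from embryonic cells moved to 0.02 (adjusted p = 0.913) under housekeeping and 0.38 (adjusted p = 0.129) under 75th percentile centring, and that from ADM kept an adjusted p under 0.05 in all 4 other scalings. Tumor arrays stood above both other groups, although only 1 of them exceeded the background level.

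The noncoding RNAs of the clusters held 1 called gene. Of 17 listed, 7 were measured, and 5 of these (Hotair, Hoxd3os1, Mir10b, Mir196a-2 and Mir615) were above background in no group. Mir196a-1, a microRNA gene of the Hoxb cluster whose product targets Hox messages, read 5.99, 6.32 and 4.67 in adult cells. It read 3.83, 4.04 and 4.29 in embryonic, 3.88, 3.82 and 3.74 in ADM and 4.19, 4.19 and 3.88 in tumor cells. All adult arrays lay above all others, with log2 fold changes against adult of -1.61 ± 0.32 in embryonic (adjusted p = 0.00208), -1.85 ± 0.32 in ADM (adjusted p = 0.000502) and -1.57 ± 0.32 in tumor cells (adjusted p = 0.0014), from limma. Adult replicate 3 was below its companions. The probe set reports the hairpin's locus and not the mature microRNA.

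The mature 5p products of the miR-196 and miR-10 genes form 2 families, each with 1 seed (bases 2 to 8, in capitals), that of miR-615-5p being another. They are shown because the called gene and the silent Mir196a-2 give the same mature sequence. The sequences are from RefSeq (GRCm38.p6), 5′ to 3′. miR-196a-5p comes from Mir196a-1 in Hoxb (chr11:96265187-96265208, plus strand) and from Mir196a-2 in Hoxc (chr15:102973365-102973386, plus strand), and miR-196b-5p from Mir196b in Hoxa (chr6:52230129-52230150, minus strand). miR-10a-5p lies in Hoxb (chr11:96317186-96317208, plus strand) and miR-10b-5p in Hoxd (chr2:74726074-74726096, plus strand).
miR-196a-5p: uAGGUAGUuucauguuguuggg
miR-196b-5p: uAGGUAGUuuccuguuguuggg
miR-10a-5p: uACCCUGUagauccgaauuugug
miR-10b-5p: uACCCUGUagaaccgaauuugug

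The clusters are flanked by genes that most cells use. Of 21 measured flanking genes, 15 were above background in all 4 groups and 4 in none (Evx1, Calcoco2, Ttll6 and Nfe2). Skap2, a signalling adaptor beside the Hoxa cluster, averaged 5.88 ± 0.398 in adult, 6.65 ± 0.136 in embryonic, 6.81 ± 0.314 in ADM and 7.10 ± 0.420 in tumor cells (SD, n = 3). Mtx2, a mitochondrial import protein that by gene order in GRCm38.p6 adjoins Hoxd1, averaged 7.19 ± 0.346, 7.08 ± 0.0833, 7.28 ± 0.153 and 7.59 ± 0.118 in the same order. Beyond the posterior ends, the homeobox gene Evx1 next to Hoxa13 lay under background in all 4 groups, and Evx2 next to Hoxd13 was above it in adult cells alone among the groups (3.86 ± 0.144).

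Hibadh, a valine catabolism enzyme lying 2 genes beyond Hoxa13, was lower in ADM (-1.20 ± 0.17, adjusted p = 9.97e-05) and in embryonic cells (-1.01 ± 0.17, adjusted p = 0.000605) than in adult cells. In tumor cells 3 were higher than in adult cells, Cbx5 (1.58), which encodes the heterochromatin protein HP1 alpha, Skap2 (1.22) and Snx10 (1.06), or 14.3% of the list against the 14% of all genes. Skap2 and Snx10 fell under the fold minimum in all 4 other scalings and Cbx5 in 2 of them. Under housekeeping centring the median of the flanking genes in tumor cells moved from 0.09 to -0.82 and 8 were called lower.

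Of the partners that bind DNA with Hox proteins, the TALE homeodomain cofactors, 9 of 10 measured were above background in at least 1 group. Meis1, which binds with many Hox proteins, read 6.50, 5.99 and 5.44 in adult, 7.99, 7.50 and 7.50 in embryonic, 6.65, 6.32 and 6.54 in ADM and 4.67, 4.15 and 3.99 in tumor cells. Embryonic arrays were highest and tumor arrays lowest, with no overlap with any other group. Meis1 was higher in embryonic than adult cells by 1.69 ± 0.26 (adjusted p = 0.000303), lower in tumor than adult cells (-1.71 ± 0.26, adjusted p = 0.000135) and lower in tumor cells than in ADM (-2.23 ± 0.26, adjusted p = 4.82e-05), from limma. Each of these 3 calls was kept in all 17 alternatives. Tgif1, a TALE repressor, was higher than in adult cells in ADM (2.53 ± 0.17, adjusted p = 1.53e-07) and tumor cells (2.41 ± 0.17, adjusted p = 1.13e-07), and no other cofactor was called in these comparisons.

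**Figure D3:**
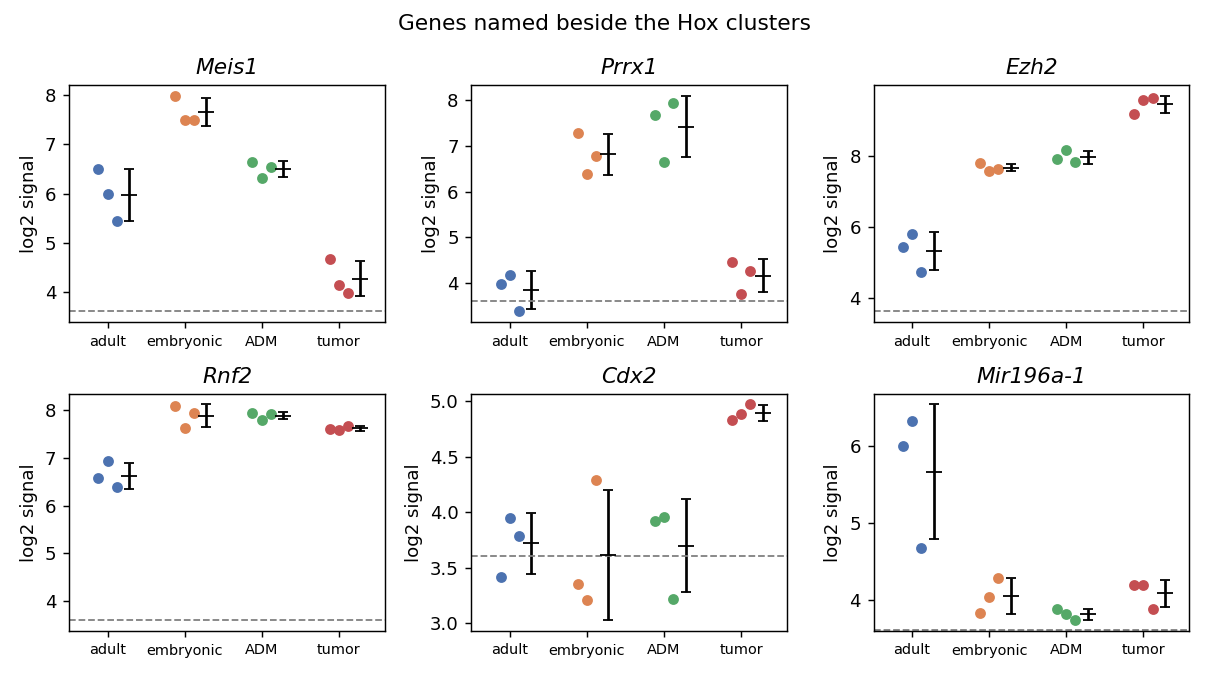
Log2 signal of 6 genes named beside the Hox clusters, 1 point per array in the 4 groups, with the mean and SD of 3 arrays as black bars and the background level of 3.61 as a dashed line; each panel has its own axis, which does not start at 0. Prrx1 is high in embryonic and ADM arrays and lower in adult and tumor arrays. Meis1 is highest in embryonic and lowest in tumor arrays, and its ADM and adult arrays overlap. Ezh2 is highest in tumor arrays at 9.18 to 9.62, and Mir196a-1 is highest in adult arrays.

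Most polycomb genes were above background, and some were higher in ADM, embryonic and tumor cells than in adult cells. All 12 measured PRC2 genes were above background in at least 1 group, and 9 of them in every group. Phf19 was at or under background in adult and ADM samples and Epop in embryonic cells. Ezh2, the methyltransferase of PRC2, read 5.43, 5.79 and 4.72 in adult, 7.79, 7.58 and 7.63 in embryonic, 7.90, 8.16 and 7.81 in ADM and 9.18, 9.56 and 9.62 in tumor cells. The groups did not overlap, and tumor arrays were highest. The difference between ADM and embryonic cells (0.29 ± 0.23, limma adjusted p = 0.521) did not pass the test. The log2 fold change against adult was 2.35 ± 0.23 in embryonic (adjusted p = 8.85e-06), 2.64 ± 0.23 in ADM (adjusted p = 1.79e-06) and 4.14 ± 0.23 in tumor cells (adjusted p = 1.62e-08), by limma, and tumor exceeded ADM by 1.5 ± 0.23 (adjusted p = 0.00063). Ezh2 is also known as a gene of dividing cells.

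Of the 12 PRC2 genes, 6 were called higher than in adult cells in ADM, 4 in embryonic and 6 in tumor cells, and none lower, with medians of 0.82, 0.44 and 1.01 against -0.11, -0.09 and -0.09 over all genes. These counts fell to 1, 2 and 1 under housekeeping centring, where 1, 1 and 2 were lower. The core subunit Eed was higher by 1.04 ± 0.21 in ADM (adjusted p = 0.00203) and by 1.25 ± 0.21 in tumor cells (adjusted p = 0.000389), but fell under the fold minimum in all 4 other scalings, to 0.11 and 0.34 at the lowest. Of the other subunits, Mtf2 was higher by 1.51 in ADM, 1.27 in embryonic and 1.36 in tumor cells, and Rbbp4 by 1.33, 1.07 and 1.29. Rbbp7 was higher by 1.12 in ADM, 1.48 in embryonic and 1.63 in tumor cells. Under housekeeping centring the Mtf2 and Rbbp4 calls and that of Rbbp7 in tumor cells fell under the fold minimum, with the direction kept. The embryonic call of Rbbp7 fell under the fold minimum with 75th percentile centring (0.95). For Rbbp7 in ADM the values under these scalings are not reported here. Suz12, the third core subunit, showed 0.60 ± 0.19 in ADM (adjusted p = 0.0237), which is under the fold minimum and turned to -0.32 under housekeeping centring. The accessory subunit Jarid2 was lower in tumor cells than in ADM (-1.03 ± 0.22, adjusted p = 0.0062), and Epop likewise (-1.0 ± 0.18, adjusted p = 0.00185). After quantile normalization both fell short of the fold minimum (-0.83 and -0.81).

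Of 18 measured PRC1 genes, 6 were higher than in adult cells in ADM, 2 higher and 1 lower in embryonic cells and 5 higher in tumor cells. Their medians of 0.33, 0.24 and 0.73 turned to -0.59, -0.23 and -0.18 under housekeeping centring, where 3, 1 and 2 were called lower, so the direction of this list depends on the scaling. Rnf2, the ubiquitin ligase of PRC1, read 6.57, 6.92 and 6.38 in adult, 8.07, 7.61 and 7.94 in embryonic, 7.93, 7.79 and 7.91 in ADM and 7.59, 7.57 and 7.67 in tumor cells. All adult arrays lay below all others, with differences of 1.25 ± 0.17 in embryonic (adjusted p = 0.000108) and 1.25 ± 0.17 in ADM (adjusted p = 6.54e-05) and, under the fold minimum, 0.99 ± 0.17 in tumor cells (adjusted p = 0.000363). The ADM call was lost in all 4 other scalings (0.33 at the lowest), and the embryonic call in 3 of them (0.72 at the lowest). Pcgf5, of the variant PRC1 complexes, was higher by 1.27 in ADM and 1.86 in tumor cells, and Pcgf6 by 1.5 and Phc1 by 1.45 in tumor cells, and all of these fell under the fold minimum with housekeeping centring. Bmi1, a PRC1 core subunit, was not called against adult cells in any of the 3 groups. Its difference in tumor cells was 0.84 with an adjusted p of 0.0189, under the fold minimum, and turned to -0.07 under housekeeping centring. Cbx7, a reader of the PRC2 mark, was lower in embryonic than adult cells (-1.05 ± 0.21, adjusted p = 0.00213), a call lost without adult replicate 2 (-0.86) and without embryonic replicate 1 (-0.92).

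Of 19 measured trithorax group and demethylase genes, which oppose polycomb, all were above background in every group. Against adult cells 4 were higher in ADM, 3 in embryonic and 8 in tumor cells, where Kmt2c was lower (-1.38 ± 0.26, adjusted p = 0.000838), and the medians of 0.65, 0.19 and 0.72 turned to -0.27, -0.28 and -0.19 under housekeeping centring. Kmt2a, the methyltransferase that keeps Hox genes active in blood cells, was higher in tumor cells by 1.03 ± 0.21 (adjusted p = 0.00152), a call kept in 10 of 17 alternatives and 0.12 at the lowest, and showed 0.84 ± 0.21 in ADM (adjusted p = 0.0073), which turned to -0.09 under housekeeping centring. Kdm6b, which removes the PRC2 mark, was higher in ADM by 1.12 ± 0.21 (adjusted p = 0.000978), and by 0.19 at the lowest, with the call lost in all 4 other scalings. Smarcc1, a subunit of SWI/SNF remodelling complexes, was higher by 1.92 in ADM, 1.02 in embryonic and 1.81 in tumor cells, and Smarcb1 by 1.19, 1.24 and 1.43, and these too fell under the fold minimum with housekeeping centring.

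Inducers of Hox genes were a mixed group. Of 18 measured retinoic acid and Cdx genes, 1 was called against adult cells in ADM, 2 in embryonic and 4 in tumor cells. The shares over all genes were 16.7%, 12.6% and 20.0% in the same order. Aldh1a2, the retinoic acid synthesis enzyme of embryonic mesoderm, read 6.12, 5.51 and 5.17 in embryonic cells, 3.93, 4.19 and 3.23 in adult, 4.06, 3.65 and 4.60 in ADM and 2.67, 3.27 and 3.36 in tumor cells. Embryonic arrays lay above all others (1.82 ± 0.32 against adult, adjusted p = 0.000831). Aldh1a1, another such enzyme, was lower in tumor than in adult cells by -4.57 ± 0.33 (adjusted p = 1.42e-07), whereas Aldh1a3 was higher by 2.02 ± 0.41 (adjusted p = 0.00157), at least 4.05-fold. Cdx2, an intestinal activator of Hox genes, read 4.83, 4.88 and 4.97 in tumor cells, above all 9 other arrays, with a difference from adult of 1.17 ± 0.27 (adjusted p = 0.00394), which fell to 0.26 under housekeeping and 0.55 under 75th percentile centring. Rarb, a retinoic acid receptor that retinoic acid itself induces, was higher in ADM than adult cells by 1.01 ± 0.23 (adjusted p = 0.00395), a call kept in 11 of 17 alternatives and 0.08 at the lowest. Crabp1, a retinoic acid binding protein, was higher in embryonic than adult cells by 2.28 (at least 3.41-fold). These tests are limma's.

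Other homeobox genes that polycomb binds in many cell types served as the nearest comparison. Of 77 measured, 40 (51.9%) were above background in at least 1 group and 12 in every group, so that 37 were silent, against 27 of 36 Hox genes. No test of that difference was made. Against adult cells 1 was higher and 1 lower in ADM, and 4 were higher and 1 lower in embryonic and in tumor cells. Called in either direction were 16.7%, 12.6% and 20.0% of all genes in ADM, embryonic and tumor cells. The medians of the list were -0.31, -0.33 and -0.28. Prrx1, a mesenchymal homeobox gene, read 3.98, 4.17 and 3.38 in adult, 7.29, 6.39 and 6.79 in embryonic, 7.68, 6.66 and 7.94 in ADM and 4.45, 3.76 and 4.27 in tumor cells. Its embryonic and ADM arrays lay above all adult and tumor arrays, as those of Hoxa5 did, by 2.98 ± 0.33 (adjusted p = 2.45e-05) and 3.58 ± 0.33 (adjusted p = 2.88e-06) against adult. ADM replicate 2 was the lowest ADM array for Prrx1 and for Hoxa5.

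The homeobox genes called in tumor cells were others. Prrx2 (2.15 ± 0.34, adjusted p = 0.00017), Pax9 (1.77 ± 0.15, adjusted p = 7.44e-07) and Pdx1 (1.58 ± 0.19, adjusted p = 1.77e-05) were higher than in adult cells by limma, Pdx1 being the factor of the pancreatic primordium. Under housekeeping centring Pax9 and Pdx1, though not Prrx2, fell under the fold minimum (0.86 and 0.67). Nkx2-2, an islet factor, was lower than in adult cells in ADM (-1.08) and tumor cells (-1.52). In embryonic cells Isl1, a factor of islet and mesenchymal development, was higher by 3.16 ± 0.30 (adjusted p = 6.58e-06), beside the higher endocrine and mesenchymal markers given above, whose part in it was not tested.

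The scaling of the arrays affects how many genes of the whole table read as higher. Of the calls against adult cells, 74.7% were higher in ADM, and 59.4%, 56.3%, 7.08% and 20.1% after quantile normalization, cyclic loess, housekeeping centring and 75th percentile centring. In embryonic cells 79.3% were higher, and 64.0%, 65.5%, 30.9% and 24.3% in the same order. In tumor cells 70.2% were higher, and 57.4%, 50.0%, 9.33% and 22.5%. Housekeeping centring also changed the share in ADM against embryonic cells from 48.1% to 18.1%, and in tumor against embryonic cells from 45.5% to 18.4%. Under housekeeping centring the median over all genes against adult cells moved to -1.03 in ADM, -0.55 in embryonic and -1.0 in tumor cells, and the Hox medians to -1.11, -0.63 and -1.11.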

How the data were processed

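RNA of 12 samples in 4 groups of 3 had been labelled with biotin and hybridised to Affymetrix arrays, per the labels' protocols. The deposited values are log2 signals per probe set made by the authors, read as log2 from their range of 1.56 to 13.67; the software, background correction and normalization are not given in the sources used here. Of 41345 probe sets, 23521 carried 1 gene symbol, 1814 several and 16010 none. The probe set of 1 symbol with the highest mean over the 12 arrays stood for each of 22180 genes, and 7 shared probe sets with a Hox symbol were left out. The number of arrays limits the precision.

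All 12 arrays were fitted in limma 3.58.1 (R 4.3.3; lmFit, contrasts.fit, eBayes) with 1 mean per group, 8 residual degrees of freedom and no covariate, and the 6 comparisons of groups were adjusted by Benjamini-Hochberg over all genes. The fit was tested on simulated data. Where a group lay under the background level, a fold is given as "at least", against the higher of that level and the group's signal. Alternatives were quantile, cyclic loess, housekeeping (11 genes) and 75th percentile scaling, other background levels, the mean of probe sets, leaving out dim genes, array weights, an intensity trend, a fit of the compared groups alone, the replicate number as a block and leaving out each array. By rule, array values are given for Hox genes above background in at least 1 group or called in at least 1 comparison. Of other lists, the rule allows up to 4 called genes per comparison with the largest changes, of which a selection is named, and always names Ezh2, Suz12, Eed, Rnf2, Bmi1, Cbx7, Kmt2a and Meis1; 1 further gene that it always names is not reported here. Outside that rule, Hoxa13, Hoxb3, Hoxc4, Hoxd1 and the Hox genes listed without the fold minimum were chosen after their values were seen. Mtx2, Evx1 and Evx2 are named as cluster neighbours, Phf19 for its level and Rbbp7 in ADM beside its other calls. The Hox members and the lists were chosen with earlier results of these data known. Promoter and microRNA sequences are from RefSeq tables of GRCm38.p6.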

Additional observations from a re-analysis of the deposited data

How the results depend on the processing

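Hoxa5 kept its calls except in ADM against adult under housekeeping centring. The number of Hox genes called in ADM against adult was 1, and became 25 (all lower) with housekeeping centring, where 56.7% of all genes were called, 9 with 75th percentile centring (30.1% of all genes) and 8 without a fold minimum. In the same order it became 4, 4 and 8 in embryonic against adult (18.2% and 21.4% of all genes at those scalings) and 26, 8 and 5 in tumor against adult (55% and 31.3%). In tumor against ADM it became 3 without a fold minimum, and in ADM against embryonic 2 with housekeeping centring and 2 without a fold minimum. In tumor against embryonic it became 7 with housekeeping centring (16.2% of all genes), 3 with 75th percentile centring (14.1%), 7 without a fold minimum and 3 with array weights. Leaving out 1 array gave 1 to 2 in ADM against adult and in embryonic against adult (Hoxa13 joined without adult replicate 3, Hoxb3 without embryonic replicate 2), 0 in tumor against adult, 1 in tumor against ADM, 0 in ADM against embryonic and 1 to 4 in tumor against embryonic. With housekeeping centring the log2 fold change turned to -0.26 for Hoxb6, -0.32 for Suz12 and -0.09 for Kmt2a in ADM and to -0.07 for Bmi1 in tumor against adult, and with 75th percentile centring to -0.01 for Suz12. The cause was not tested.

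Hox genes above background numbered 0 in adult cells at the 99th percentile level and 12 by group mean, and 6 to 10 without 1 array. In embryonic cells they numbered 13 at the 90th percentile level, 2 at the 99th, 11 by group mean and 11 with the level of the group's own arrays, an alternative chosen after seeing the data, and 6 to 9 without 1 array. In ADM they numbered 1 with housekeeping centring, 3 with 75th percentile centring, 14 at the 90th, 1 at the 99th, 10 by group mean, 13 with the own level and 6 to 8 without 1 array. In tumor cells they numbered 0 with housekeeping centring, 1 with 75th percentile centring, 6 at the 90th, 0 at the 99th and 3 to 4 without 1 array.

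With the replicate number as a block, the Hox call counts were 1, 1, 0, 1, 0 and 1, as without it, and the Hoxa5 log2 fold change, ADM against adult, was 1.65 (limma adjusted p = 0.000373). Deviations of samples with the same number correlated at -0.05 to 0.13 over 18 pairs and those with different numbers at -0.12 to 0.11, so no pairing by number was seen. These correlations cannot show whether samples of the same number share an animal or a preparation. Most Hox signals lie near background, where an array difference has little range, and a silent gene has only an upper bound here.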
